A study of Homo sapiens with 6 samples.

Results

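The regions described here carried BRD8 in 2 human lung epithelial cell lines and CTCF in 1 of them. The peaks of 3 chromatin immunoprecipitation sequencing (ChIP-seq) lists were pooled, peaks that overlapped by at least 1 bp were merged, and a region was kept when it held a peak from every list. This gave 3542 regions of 21110 in all, or 16.8%. The regions were thus chosen by the peak calls of all 3 lists. Numbers and signals of peaks in these regions are therefore descriptions, and none of them is tested.

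The lists were BRD8 in Calu3, a lung adenocarcinoma line, BRD8 in 16HBE14o-, an immortalised bronchial epithelial line, and CTCF in Calu3. Each came from 2 replicates of untreated cells grown in DMEM with fetal bovine serum, and was deposited as 1 list of peaks that the authors pooled by the irreproducible discovery rate, a filter for peaks whose ranks are reproducible. The same Active Motif antibody was used against BRD8 in both lines and a Millipore antibody against CTCF. CTCF was not mapped in 16HBE14o- in the data used here, so every CTCF value below belongs to Calu3. With 1 value per experiment there was no spread between replicates to compare with, and the sequencing depth is unknown. Intervals cover counting error only and take regions as independent, which neighbours are not.

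BRD8 belongs to the NuA4/TIP60 complex, has a bromodomain, and works within an assembly that acetylates histones and exchanges histone variants at promoters and other open chromatin. CTCF uses many zinc fingers to read a long, directional DNA motif. It marks insulators, and cohesin stops at it when chromatin loops are formed. CTCF occupancy is known to be largely common to different cell types. BRD8 itself is not known to bind a DNA motif. The lists name no genes, and positions are on hg19 with cytogenetic bands of the same build.

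The 3542 regions covered 1.81 Mb. Most were simple: 2765 (78.1%) held exactly 1 peak of each list, and 685 held 2 Calu3 BRD8 peaks with 1 peak of each of the others. The other 92 had further patterns. The median width was 476 bp, which is the usual width of a Calu3 BRD8 peak, and widths ran from 224 to 1301 bp. In 3524 regions a peak of each list shared at least 1 base, and in 18 the lists were joined only through a chain of overlaps. The regions lay on 23 chromosomes, the autosomes and X, with 37 on X.

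They made up 61.3% of the 5777 regions with BRD8 and CTCF in Calu3 (60.0 to 62.6%) and 57.2% of the 6191 regions with 16HBE14o- BRD8 at a Calu3 CTCF peak (56.0 to 58.4%). They also made up 86.3% of the 4105 regions with BRD8 in both lines (85.2 to 87.3%). Counted in peaks, they held 4305 of 9769 Calu3 BRD8 peaks (44.1%), 3575 of 9505 16HBE14o- BRD8 peaks (37.6%) and 3621 of 16413 CTCF peaks (22.1%).

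Within each list the authors' signal gives a rank, stated here as a percentile in which 100 is the strongest peak. The regions held the strong end of all 3 lists. The strongest Calu3 BRD8 peak of a region had a median percentile of 71.6 (quartiles 49.7 and 87.8), the 16HBE14o- BRD8 peak one of 68.0 (43.2 and 86.0) and the CTCF peak one of 76.9 (54.5 and 92.0). A list as a whole has a median of 50 by construction. In the authors' signal, the lowest, median and highest values were 9.22, 42.0 and 330.2 for Calu3 BRD8, 8.75, 34.2 and 179 for 16HBE14o- BRD8, and 5.65, 80.7 and 388.2 for CTCF. Signals of different lists may not share a scale.

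Regions with fewer lists had lower percentiles. Where BRD8 was called in Calu3 alone with CTCF, the medians were 56.2 for BRD8 and 52.6 for CTCF. Where it was called in 16HBE14o- alone with Calu3 CTCF, they were 51.3 and 60.5. BRD8 in both lines without CTCF stood at 49.0 in Calu3 and 43.8 in 16HBE14o-, and CTCF without BRD8 at 35.6.

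The share of peaks that lay in the regions was highest at the strong end of each list. Of the strongest decile of CTCF peaks, 63.5% were in them (61.1 to 65.9%), against 36.9% of the next decile and 3.90% of the weakest (3.02 to 4.95%). In the 16HBE14o- BRD8 list the share went from 16.5% in the weakest decile to 69.8% in the strongest. The Calu3 BRD8 list departed from this order at its weak end, with 35.9% in the weakest decile, 26.4% in decile 3 and 77.8% in the strongest. Of the 350 weakest-decile Calu3 BRD8 peaks in the regions, 342 lay beside a stronger BRD8 peak of the same region. In 16HBE14o- this was so for 7 of 157.

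**Figure D1:**
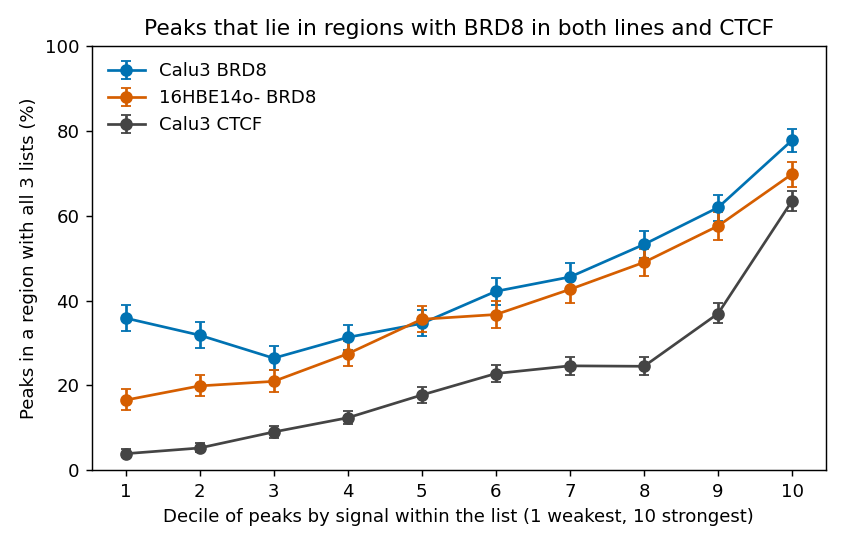
Share of peaks of each list that lay in a region with all 3 lists (vertical axis, %) by decile of the authors' signal within that list (horizontal axis, 1 weakest to 10 strongest), with exact 95% intervals as bars. The CTCF line climbs from 3.90% to 63.5% and is steepest over the last deciles, and the Calu3 BRD8 line alone turns up again at the weak end, to 35.9%.

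The authors' score, which tops out at 1000, was at that maximum in 66.2% of the regions for Calu3 BRD8, 69.8% for 16HBE14o- BRD8 and 87.0% for CTCF. These shares count only the strongest peak of each list in a region. Over all peaks of the lists, weaker peaks of a region included, the shares were 46.0%, 51.2% and 62.2%. All 3 peaks had the maximal score in 1621 regions (45.8%). The peaks of the regions also kept less often to the usual width of their list for CTCF: 48.6% of the strongest CTCF peaks were 290 bp wide, against 74.1% of the CTCF list. For Calu3 BRD8 87.5% were 476 bp wide, against 94.2% of the list.

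The 3 signals went together only loosely from region to region. In 1644 regions (46.4%) every peak was in the upper 50% of its list, in 163 (4.60%) every peak was in the top decile, and in 161 (4.55%) every peak was in the lower 50%. Over the 3542 regions Spearman's rho between the signals was 0.36 for 16HBE14o- BRD8 and Calu3 CTCF, 0.28 for BRD8 in the 2 lines and 0.26 for BRD8 and CTCF within Calu3. These are correlations across sites that share a cell line in 1 pair and an antibody in another, and the sites were chosen for peaks in all lists. Pearson's r of log10 signal was 0.35, 0.39 and 0.25, in the same order, so that the pair of BRD8 lists had the highest r but not the highest rho. In the 563 regions with BRD8 in both lines but no listed CTCF peak, rho between the BRD8 signals was 0.11. With BRD8 in 1 line alone, rho with CTCF was 0.23 over 2235 Calu3 regions, near the 0.26 above. Over 2649 16HBE14o- regions it was 0.29, lower than the 0.36 above.

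By quartiles of CTCF signal, the BRD8 percentiles were lowest where CTCF was weakest and highest where it was strongest. The median Calu3 BRD8 percentile was 59.8 in the weakest CTCF quartile (57.9 to 62.2), 72.4 and 69.9 in the middle ones, and 82.5 in the strongest (80.7 to 85.1). For 16HBE14o- BRD8 the medians rose at each step, from 51.9 (49.2 to 55.1) through 63.6 and 69.8 to 84.4 (82.2 to 85.8). In the strongest CTCF quartile 35.4% of the Calu3 and 36.6% of the 16HBE14o- BRD8 peaks were in the top decile of their list. In the weakest CTCF quartile the shares were 9.26% and 7.79%. Between the lines the pattern was alike: by quartiles of Calu3 BRD8 signal the median 16HBE14o- BRD8 percentile was 58.6, 61.2, 69.0 and 81.5 from weakest to strongest. By quartiles of 16HBE14o- BRD8 signal the median CTCF percentile in Calu3 rose from 62.6 in the weakest through 69.8 and 80.5, and was highest in the strongest (88.8 to 91.8).

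**Figure D2:**
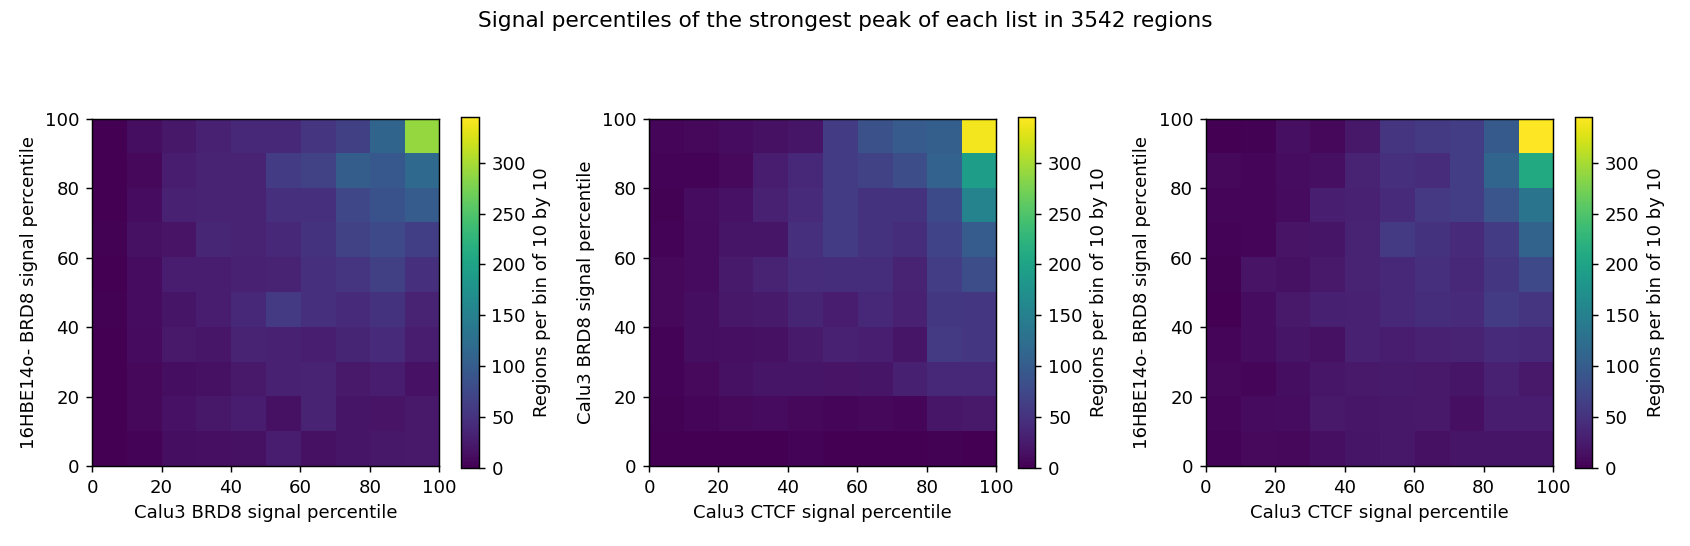
Number of regions (colour, per bin of 10 by 10 percentile points) by the signal percentile of the strongest peak of each list, for the 3 pairs of lists, with both axes in percentiles within the list. The fullest bin of every panel is the upper right corner, and regions also spread over the rest of each panel, where rho is between 0.26 and 0.36.

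The 10 regions whose weakest peak ranked highest in its list were strong in all 3 lists. They ranked within the first 53 for Calu3 BRD8, the first 40 for 16HBE14o- BRD8 and the first 82 for CTCF. The first, in 20q13.32 (chromosome 20, 56784786 to 56785386), ranked 1 for Calu3 BRD8 with signal 330.2, 2 for 16HBE14o- BRD8 with signal 160.7 and 3 for CTCF with signal 378.0. The second lay in 19q13.2 (chromosome 19, 41140293 to 41140795), at ranks 15, 19 and 21 in the same order. In 20q11.21 (chromosome 20, 30200644 to 30200994) the ranks were 25, 9 and 2. Of the 10, 6 lay on 17q, 19q and 20q, arms that held 217, 168 and 237 of all 3542 regions. These arms were named after the 10 had been seen, so the count is a description and shows no concentration.

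A region in 12q13.3 (chromosome 12, 57632826 to 57633232) had ranks 21, 35 and 44. One in 19q13.11 (chromosome 19, 34268913 to 34269463) had ranks 9, 36 and 9. The region in 17q21.2 (chromosome 17, 39818902 to 39819305) ranked 8, 39 and 22. It is the middle one of a row of neighbours described below. In 17q12 (chromosome 17, 36762544 to 36763028) CTCF ranked 1, Calu3 BRD8 3 and 16HBE14o- BRD8 40. The last were in 7q36.1 (chromosome 7, 150869651 to 150870287; ranks 46, 14 and 67), 11q13.4 (chromosome 11, 72145053 to 72145613; ranks 14, 10 and 82) and 15q24.3 (chromosome 15, 77925806 to 77926146; ranks 53, 11 and 51). Each of the 10 held 1 CTCF peak and 1 16HBE14o- BRD8 peak. The BRD8 summits lay 4 to 30 bp from the CTCF summit in Calu3 and 2 to 31 bp in 16HBE14o-.

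Elsewhere the 2 lines ranked the same region very differently. The Calu3 percentile minus the 16HBE14o- percentile had a median of 2.94 points (quartiles -14.4 and 23.8). In 1038 regions (29.3%) the lines were within 10 points of each other, in 284 Calu3 was higher by over 50 points and in 168 16HBE14o- was. Only the strongest peak of a region is compared, while percentiles rank all peaks of a list. Of the weakest-decile peaks in the regions, 8 in Calu3 and 150 in 16HBE14o- were the strongest of their region. How far this raises the Calu3 percentiles against those of 16HBE14o- was not tested. The widest gap in favour of Calu3 was in 3q27.1 (chromosome 3, 183100143 to 183100618), with the Calu3 BRD8 peak at rank 389 (percentile 96.0), the 16HBE14o- one at 9240 (percentile 2.80) and CTCF at percentile 72.6. The next lay in 8q24.3, at 93.7 against 0.452 and at 94.9 against 2.10. Their CTCF percentiles were 98.9 and 94.5.

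The widest gap in favour of 16HBE14o- was in 6q21 (chromosome 6, 114180004 to 114180681), with BRD8 at rank 330 in 16HBE14o- (percentile 96.5) and 8306 in Calu3, a difference of -81.6 percentile points. CTCF in Calu3 stood at percentile 95.1 there. It was followed by 20q13.32 (chromosome 20, 58146565 to 58147040), at percentiles 98.3 and 17.3, and by 11q13.2 (chromosome 11, 66025436 to 66026044), at 98.0 and 17.9. In 5 of these 6 regions the CTCF and 16HBE14o- BRD8 summits were at most 27 bp apart, and in the remaining one, in 8q24.3, 55 bp. In the 11q13.2 region the Calu3 BRD8 summit lay 224 bp from CTCF and 233 bp from the 16HBE14o- BRD8 summit. There the lines were thus not ranked at the same point.

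CTCF and BRD8 could also stand at opposite ends of their lists. In 3q26.33 (chromosome 3, 179040460 to 179040935) CTCF ranked 97 (percentile 99.4), while BRD8 was at percentiles 13.4 in Calu3 and 11.5 in 16HBE14o-. Similar pairs were found in 1p21.3 (chromosome 1, 98519620 to 98520095), with CTCF at 92.0 and BRD8 at 13.6 and 7.48, and in 2q31.1 (chromosome 2, 175206162 to 175206637), with CTCF at 94.1 and BRD8 at 22.8 and 5.36. BRD8 was low in both lines at all 3.

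The opposite pattern was led by 4q31.23 (chromosome 4, 148788012 to 148788329), with Calu3 BRD8 at rank 167 (percentile 98.3), 16HBE14o- BRD8 at 530 (94.4) and CTCF at 14664 (10.7). The BRD8 summits of the lines lay 19 bp apart there. In 6q23.2 (chromosome 6, 133089105 to 133089791) BRD8 stood at 96.3 and 66.0 and CTCF at 0.0609. The CTCF summit was 214 bp from the Calu3 BRD8 summit and 272 bp from that of 16HBE14o-, so that the 3 lists did not meet at 1 point. In 5q35.3 (chromosome 5, 177503122 to 177503463) the percentiles were 97.8, 62.5 and 6.09.

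A summit is the position of highest signal in a peak, and the strongest peak of each list stands for its region. The 3 summits fell close together: the median span was 40 bp, with quartiles of 25 and 63 bp, and it was at most 100 bp in 89.8% of the regions (88.7 to 90.7%). The Calu3 BRD8 summit was a median of 28 bp from the CTCF summit (95% interval 27 to 29 bp; quartiles 12 and 51 bp). For the 16HBE14o- BRD8 summit, mapped in other cells, the median was 18 bp (17 to 18 bp; quartiles 8 and 32 bp). The BRD8 summits of the 2 lines were a median of 29 bp apart. Peaks had to overlap to be merged, which limits these distances, and the wider Calu3 BRD8 peaks allow larger ones.

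The 16HBE14o- BRD8 summit was the closer of the 2 to the CTCF summit in 2187 regions, or 61.7% (60.1 to 63.3%). Where the 3 summits were at different bases, in 3387 regions, the one in the middle was CTCF in 42.1%, 16HBE14o- BRD8 in 36.5% and Calu3 BRD8 in 21.4%. There was no preferred side along the chromosome. Calu3 BRD8 summits lay at lower coordinates than CTCF in 1759 regions and at higher ones in 1730, and 16HBE14o- BRD8 summits in 1748 and 1726. Both BRD8 summits lay on the same side of CTCF in 1996 of 3421 regions (58.3%, 56.7 to 60.0%). Both offsets are measured from the same CTCF summit, so an error in it moves them together. The strand of the CTCF motif was not analysed here.

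**Figure D3:**
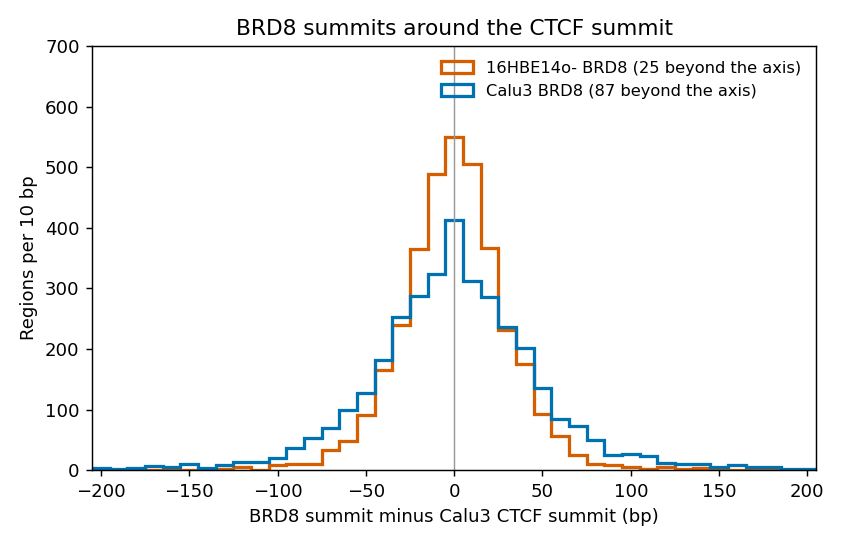
Distribution of the distance from the Calu3 CTCF summit to the strongest BRD8 summit of the same region (horizontal axis, bp, with negative values at lower coordinates), as regions per 10 bp, for 16HBE14o- and Calu3. Both distributions are centred on the CTCF summit, and the 16HBE14o- one is narrower, with medians of 18 and 28 bp without regard to side.

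Summits were closer in regions that were strong in all lists. In the quartile of regions with the highest lowest percentile, the median distance to CTCF was 21 bp for Calu3 BRD8 (19 to 23 bp) and 14.5 bp for 16HBE14o- BRD8 (13 to 16 bp). In the lowest quartile it was 35.5 bp (33 to 38 bp) and 22 bp (20 to 23 bp). In 53 regions the Calu3 BRD8 and CTCF summits fell on the same base, and in none did all 3. The first of these along the genome were in 1p36.11 (chromosome 1, 26324574 to 26325049), 1p34.3 (chromosome 1, 35318208 to 35318683) and 1p34.2 (chromosome 1, 41733777 to 41734252), with 16HBE14o- BRD8 summits 19, 24 and 2 bp away.

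The 3 largest Calu3 BRD8 distances came from regions of several peaks. In 5q31.1 (chromosome 5, 131400326 to 131401393), which held 3 Calu3 BRD8, 2 16HBE14o- BRD8 and 3 CTCF peaks, the strongest Calu3 BRD8 and CTCF summits were 700 bp apart, and those of 16HBE14o- BRD8 and CTCF 42 bp. In 15q25.2 (chromosome 15, 83679549 to 83680668) the distances were 660 and 10 bp. In 5q35.3 (chromosome 5, 176830652 to 176831779) they were 660 and 676 bp, and the BRD8 summits of the lines were 16 bp apart. At this last site both lines had their strongest BRD8 peak away from the strongest of the 2 CTCF peaks. The widest region, 1301 bp in 11p11.2 (chromosome 11, 45792776 to 45794076), held 4 Calu3 BRD8 peaks, 1 of 16HBE14o- and 2 of CTCF.

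In 722 regions (20.4%) there were 2 Calu3 BRD8 peaks. The weaker summit lay a median of 204 bp from the stronger one (quartiles 201 and 214 bp) and never closer than 199 bp. The strongest CTCF summits of a region had the same least distance, 199 bp. Whether this distance comes from the peak calling was not tested. The stronger peak had a median signal of 51.0 and the weaker one of 15.4, with a median ratio of 3.37 within a region. CTCF was nearer to the weaker summit in 57 of the 722 (7.89%). Regions with 2 BRD8 peaks were also the stronger ones in Calu3, with a median percentile of 82.4 against 68.8 in the 2800 regions with 1. In 373 of the 722 the weaker peak lay on the side of its stronger neighbour on which CTCF lay. Only 33 regions held more than 1 16HBE14o- BRD8 peak.

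Double CTCF peaks were rare, with 74 regions (2.09%). Their strongest CTCF summits were a median of 406.5 bp apart, with a range of 199 to 754 bp, and had median CTCF percentiles of 84.5 and 45.6. BRD8 was mostly called at 1 of them. A Calu3 BRD8 summit lay within 100 bp of both CTCF summits in 20 regions, of 1 in 47 and of neither in 7. A 16HBE14o- BRD8 summit did so in 18, 55 and 1. Both lines had BRD8 at both CTCF summits in 7 regions.

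The limit of the rule, an overlap of 1 bp, touched few regions. The overlap that joined the least attached list had a median of 224 bp, the full width of a usual 16HBE14o- peak, and was at most 50 bp in 12 regions. Just inside were a region in 3q21.1 (chromosome 3, 123005117 to 123005897), joined by 6 bp, one in 3q22.1 (chromosome 3, 129369139 to 129369897), joined by 7 bp, and one in 3q21.3 (chromosome 3, 128144712 to 128145486), joined by 18 bp. Calu3 BRD8 lay 376 to 398 bp from CTCF in all 3. Just outside, with a gap of 5 bp, were regions in 11q13.4 (chromosome 11, 71688805 to 71689094), where Calu3 BRD8 was missing, and 20q13.13 (chromosome 20, 48504953 to 48505428), where CTCF was missing. Another in 22q13.31 (chromosome 22, 46710263 to 46710552) missed Calu3 BRD8 by 6 bp.

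Regions that lacked 1 list mostly had no peak of it nearby. Of the 2235 regions with Calu3 BRD8 and CTCF alone, 61 (2.73%) had a 16HBE14o- BRD8 peak within 1 kb, and the median gap was 69.3 kb. Of the 2649 with 16HBE14o- BRD8 and CTCF alone, 81 (3.06%) had a Calu3 BRD8 peak within 1 kb, with a median gap of 73.5 kb. For the 563 with BRD8 in both lines and no listed CTCF, the figures were 25 (4.44%) and 33.6 kb. A missing call does not show that the protein was absent.

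The position of a region along its chromosome was not used to choose it. Cytogenetic bands that stay pale with Giemsa stain are known to be rich in genes and in G and C, and darkly stained bands to be poor in both. The regions lay in Giemsa-negative bands in 64.0% of cases (62.4 to 65.6%), beside 60.0% of all 21110 merged regions and 42.4% of the banded length. In the darkest bands they were scarce, with 107 regions, or 3.02% (2.48 to 3.64%), beside 5.64% of all merged regions and 16.4% of the length. For CTCF without BRD8 the shares were 59.5% (58.4 to 60.6%) and 6.78% (6.22 to 7.37%). BRD8 in Calu3 alone with CTCF had 58.5% and 5.10% (4.23 to 6.10%), and BRD8 in 16HBE14o- alone with CTCF 61.8% and 5.44% (4.60 to 6.37%). The interval for the darkest bands overlapped that of BRD8 in both lines without CTCF, at 3.55% (2.18 to 5.43%), and of no other class. In Giemsa-negative bands the interval overlapped that of BRD8 in 16HBE14o- alone with CTCF (60.0 to 63.7%). It also overlapped that of BRD8 in both lines without CTCF (55.5 to 63.8%).

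**Figure D4:**
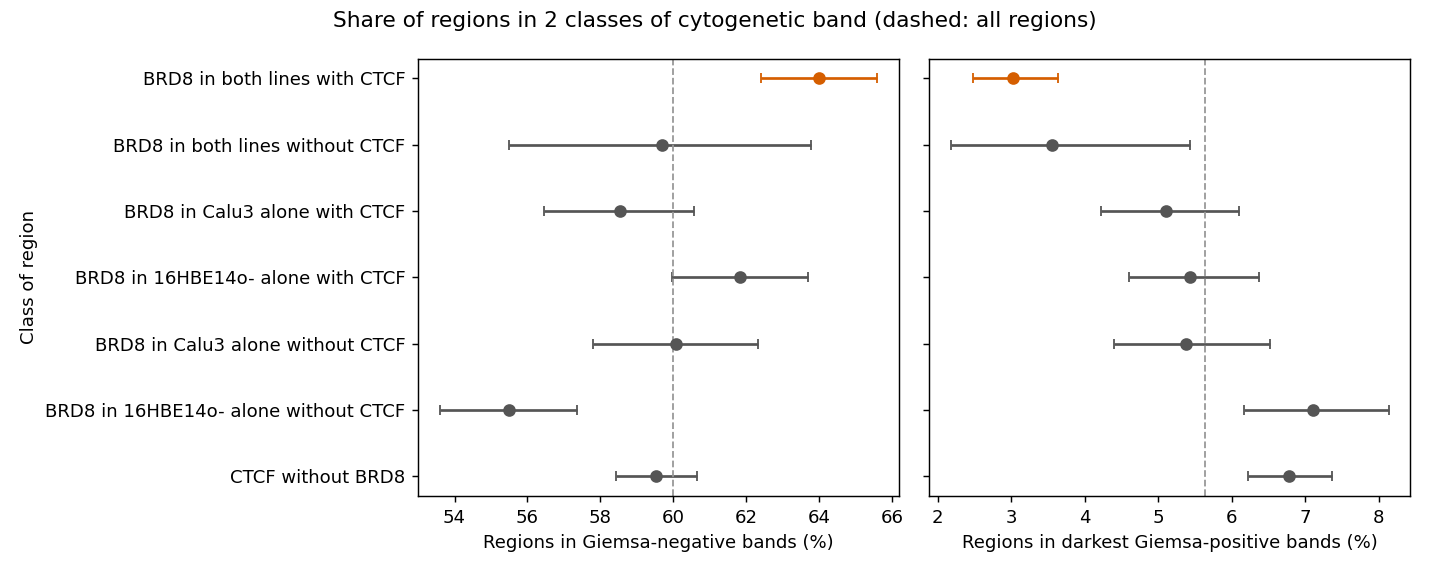
Share of each class of merged region (vertical axis) that lay in Giemsa-negative bands (left, %) and in the darkest Giemsa-positive bands (right, %), with exact 95% intervals; the dashed lines are all merged regions, at 60.0% and 5.64%. The regions with all 3 lists, in orange, are the highest on the left at 64.0% and the lowest on the right at 3.02%.

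Members were spread over 549 bands, with at most 45 in 1 band. The fullest were 1q32.1 with 45 of 149 merged regions (30.2%), 19q13.2 with 43 of 170 (25.3%) and 20q13.12 with 43 of 123 (35.0%). Among the 246 bands with at least 30 merged regions, 3p25.1 had the highest share, 15 of 35 (42.9%), and 2 had none. In 12q24.33 there were 21 regions with Calu3 BRD8, 52 with CTCF and 0 with 16HBE14o- BRD8. In 11p15.1 the numbers were 29, 48 and 1. In both, BRD8 in 16HBE14o- was the list with the fewest regions.

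Some bands hold loci known for their CTCF sites, and were looked up after the values had been seen. In 5q31.3, the band of the clustered protocadherin genes, 20 of 80 merged regions had all 3 lists (95% interval 16.0 to 35.9%), an interval that includes the 16.8% of all merged regions. In 11p15.5, which holds the imprinted H19 and IGF2 genes and the mucin genes MUC5AC and MUC5B, 6 of 95 did (6.32%, 2.35 to 13.2%), below the share of all merged regions but near that of the whole 11p arm, 4.31%. In this band CTCF was called in 90 regions, Calu3 BRD8 in 42 and 16HBE14o- BRD8 in 11. The strongest of the 6 for Calu3 BRD8 (chromosome 11, 2554015 to 2554596) was at percentile 97.8, with 16HBE14o- BRD8 at 53.9 and CTCF at 94.8. In 7q31.2, the band of CFTR, the chloride channel gene of cystic fibrosis, 2 of 8 regions had all 3 lists (3.19 to 65.1%), too few to set apart from the rest. One (chromosome 7, 116311659 to 116312333) had BRD8 at percentiles 83.3 in Calu3 and 48.7 in 16HBE14o- and CTCF at 85.5. The other (chromosome 7, 116570469 to 116570944) had 31.3, 72.6 and 48.6. Bands are large, and these values assign no region to a gene.

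Chromosome arms differed in how many regions they held and in how the lines ranked them. Of the 41 arms with at least 100 merged regions, the share with all 3 lists was highest on 20q, at 237 of 897 (26.4%, 23.6 to 29.4%), and lowest on 10p, at 4 of 147 (2.72%, 0.746 to 6.82%), and 11p, at 20 of 464 (4.31%, 2.65 to 6.58%). On 11p only 12.3% of the 162 regions with BRD8 and CTCF in Calu3 had BRD8 in 16HBE14o-. In the other direction 64.5% of the 31 regions with 16HBE14o- BRD8 and CTCF had BRD8 in Calu3. On 3q the shares were 42.3% of 411 and 81.3% of 214. On 14q the order was the opposite, with 86.4% of 176 and 51.0% of 298, and on 6q likewise, with 85.2% of 61 and 39.1% of 133.

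Ranks and calls went the same way on 14 of the 18 arms whose median difference had an interval without 0, and the opposite way on 4, which were 1q, 2q, 8q and 15q. On 8q, for example, the Calu3 percentile was higher by a median of 21.3 points (14.6 to 23.8), while 60.9% of 133 Calu3 and 58.7% of 138 16HBE14o- BRD8 regions with CTCF had BRD8 in the other line. These directions were judged against 0 and against equal shares. Over all the regions the median difference was 2.94 points and the shares were 61.3% for Calu3 and 57.2% for 16HBE14o-, also the opposite way. Ranks and calls come from the same peaks, so neither is independent of the other. On 11p the Calu3 percentile exceeded the 16HBE14o- percentile in 19 of 20 regions, with a median difference of 41.6 points (31.2 to 51.2), from medians of 81.0 and 38.6. On 3q it was higher in 148 of 174 regions, by a median of 26.2 points (20.4 to 32.2), and on 7p in 100 of 128, by 19.1 points (13.4 to 28.2). On 6q it was higher in 15 of 52, with a median difference of -16.0 points (-34.4 to -3.85), and on 14q in 50 of 152, with -11.9 points (-17.0 to -4.23). On 5p it was higher in 7 of 27, with -14.7 points (-26.5 to -0.122). In the upper 50% of each list the median differences were 15.1 points on 3q, 7.56 on 7p and -5.90 on 14q. On 6q the value was -10.9, with an interval (-24.5 to 0.607) that included 0. That rule leaves out every region in which 1 line is weak, which limits the differences in advance. Their smaller size is thus no separate result. On 20q, the arm with the highest share, both lines were strong, with median percentiles of 82.2 in Calu3 and 92.5 in 16HBE14o-. The CTCF medians were 88.8 on 11p, 69.6 on 3q, 64.9 on 6q and 72.2 on 20q. Of 40 arms with at least 10 of the regions, the interval of the median difference lay above 0 on 13 and below 0 on 5. The limit stated above for percentiles of the strongest peaks holds for these differences too. On 18p, with 16 regions, the median was -25.9 points and its interval (-50.5 to 6.80) included 0. Whether the signal was corrected for the number of copies of each arm is not given in the sources used here.

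**Figure D5:**
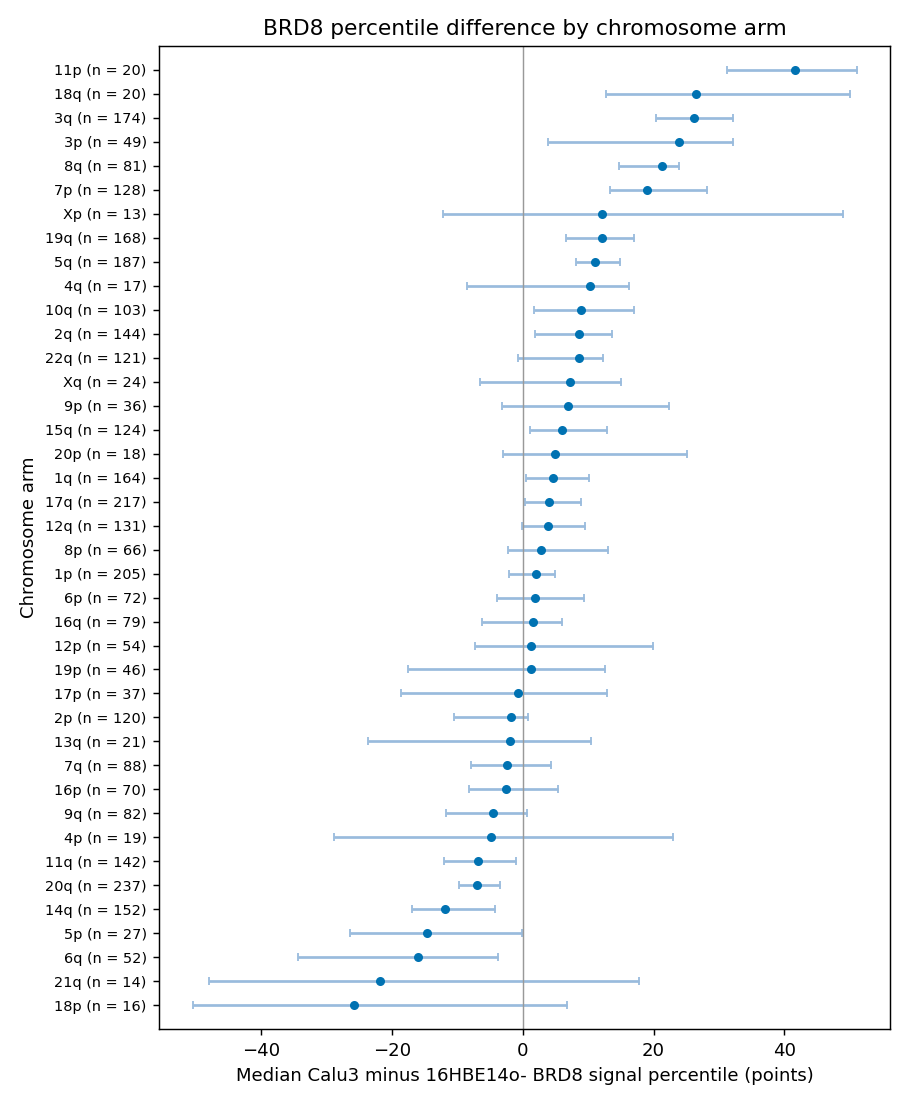
Median Calu3 minus 16HBE14o- BRD8 signal percentile over the regions of each chromosome arm (horizontal axis, percentile points), with the 95% order statistic interval of the median as bars, for the 40 arms with at least 10 of the regions (number in brackets). The arms run from 18p, at -25.9 points, to 11p, at 41.6 points, and most medians lie within about 10 points of 0.

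The regions were scattered and only now and then close together. Neighbours on a chromosome were a median of 172.5 kb apart (quartiles 56.1 and 546.3 kb). Of 3519 gaps, 250 (7.10%) were under 10 kb and 115 over 5 Mb. The nearest merged region of any class was a median of 12.6 kb away, and it held all 3 lists in 21.1% of cases (19.8 to 22.5%), beside 17.2% over all merged regions. With exactly 1 peak of each list per region the shares were 16.0% (14.6 to 17.4%) and 13.4%, and with peaks set to 200 bp 17.9% (16.6 to 19.2%) and 15.6%. The difference was thus small under these rules too.

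With gaps under 20 kb, 49 runs of 3 or more regions formed, which held 154 regions. The largest run had 5, over 19.4 kb of 17q21.2 (chromosome 17, 39804218 to 39823591), a band that holds the type I keratin genes. All 5 were strong in Calu3, with BRD8 percentiles from 83.1 to 99.9 and CTCF percentiles from 81.4 to 99.9. In 16HBE14o- they ranged from 23.8 to 99.6. Its strongest member is the region with ranks 8, 39 and 22 described above. A run of 4 in 12q13.13 (chromosome 12, 54754572 to 54773794) spanned 19.2 kb, with Calu3 BRD8 percentiles from 30.7 to 99.8, 16HBE14o- BRD8 percentiles from 30.4 to 99.4 and CTCF percentiles of 55.4 and above. The tightest run of 4 covered 12.8 kb of 20q11.21 (chromosome 20, 30145107 to 30157948), with CTCF percentiles between 47.5 and 63.2 and BRD8 percentiles between 41.9 and 89.1 in Calu3 and 10.5 and 90.8 in 16HBE14o-.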

How the data were processed

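Each of 3 ChIP-seq experiments had 2 replicates (6 samples) and gave 1 narrowPeak list, on hg19 according to the track lines of the files. Per the series' design text the authors pooled replicates by the irreproducible discovery rate. The aligner, peak caller and control are not given in the sources used here. The deposited signal ranks peaks within a list and its scaling is not stated. The deposited score runs from 540 to 1000, and the values in the q-value column, also deposited, fall below 0 for 46 peaks and were taken as another score and not used. The other deposited column, the summit offset, is in bp.

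Peaks were merged in Python 3.11.15 with numpy 2.4.6 and pandas 2.3.3, and the 21110 regions equal the number from bedtools 2.31.1. The merging was tested on simulated data. These held well-separated regions without second peaks of a list, so chains of overlaps, several peaks of a list and close neighbours were not covered. Intervals of shares are exact 95% Clopper-Pearson intervals (scipy 1.17.1), those of medians 95% order statistic intervals. Bands came from circlize 0.4.16 in R 4.3.3. Figures were drawn with matplotlib 3.10.9. No test was made, for want of values per replicate.

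Regions are named by rules: 10 strong in all lists, and 3 each for contrasts between lists, numbers of peaks, width, summit distance and the rule's limit. Members and rules were chosen with earlier results of these data known. Comparisons with genes, motifs or sequence, planned beforehand, were not made, since no genome of this build was used here.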

Additional observations from a re-analysis of the deposited data

How the results depend on the processing

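The number of regions, their percentiles, correlations and summit distances were recomputed under 6 other rules for peaks and merging. The shares in Giemsa-negative and darkest bands, the neighbours and gaps, and the percentile differences on 3q, 6q, 7p, 11p, 14q, 18p and 20q were recomputed too, a choice made after seeing the data. Other arms, single bands and runs were not. Requiring a base common to all 3 lists (3524 regions) or leaving out X (3505) moved none of the values beyond its interval. The upper 50% of each list by signal left 1643 regions, with median percentiles of 84.3 for Calu3 BRD8, 83.1 for 16HBE14o- BRD8 and 88.2 for CTCF, correlations of 0.15 for Calu3 BRD8 and 0.25 for 16HBE14o- BRD8 with CTCF, median summit distances of 24 and 16 bp from CTCF and 25 bp between lines, 66.0% in Giemsa-negative bands, 19.0% with a member as nearest region and a median gap of 300.9 kb. Lists of equal length gave percentiles of 74.0, 71.0 and 82.6, correlations of 0.20 and 0.31 with CTCF, 22.9% with a member as nearest region and gaps of 185.1 kb. Over all merged regions the nearest region was a member in 14.5% with the upper 50% and in 18.3% with lists of equal length. The share of all merged regions in Giemsa-negative bands was not computed for the upper 50%, so the 66.0% has no such value beside it. Both settings keep stronger peaks by construction. Strongest summits within 100 bp gave a Calu3 BRD8 percentile of 73.3, distances of 25 bp to CTCF and 26 bp between lines, 19.2% with a member as nearest region and gaps of 191.5 kb. Over all merged regions the share with a member as nearest region was then 15.4%. Peaks set to 200 bp gave 17.9% with a member as nearest region. Exactly 1 peak of each list, added after seeing the data, gave percentiles of 68.9 for Calu3 BRD8 and 75.3 for CTCF, 16.0% with a member as nearest region and gaps of 241.8 kb. Pearson's r of log10 signal between the BRD8 lists was 0.39. The remaining 77 values of these comparisons stayed within the interval of the reported value, or, for counts, within 1.5 times. In the upper 50% of each list the percentile difference was 15.1 points on 3q and 7.56 on 7p, and the interval on 6q included 0. The values of -5.90 on 14q and -4.36 on 20q were over 1.5 times smaller in size than those over all the regions (-11.9 and -7.02). On 11p and 18p too few regions were kept for a value. Percentiles were still those of the whole lists, so this rule limits the differences in advance. Of the results recomputed here none changed sign, but the order of the correlations did change. In the upper 50% of each list rho between the BRD8 lists was 0.28, above the 0.25 of 16HBE14o- BRD8 with CTCF.

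No paired analysis was possible because the lists pool both replicates of an experiment, so that neither a block nor a left-out replicate can be computed. Alternatives for motifs, sequence and start sites were not run. Depth and the control are unknown, so weak sites missed in 1 list cannot be told from sites without the protein.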
